A study of Mus musculus with 14 samples.

Results

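The CXC chemokines and *Xcl1* were followed in the colon of adrenalectomized (ADX) mice given dexamethasone (DEX) or PBS. The list named 10 genes, *Cxcl1*, *Cxcl2*, *Cxcl5*, *Cxcl9*, *Cxcl10*, *Cxcl11*, *Cxcl12*, *Cxcl13*, *Cxcl14*, and *Xcl1*. Every array probe whose RefSeq accession led to one of these symbols was taken. This gave 10 probes for 9 of the genes, out of 41174 probes and 19096 named genes. *Cxcl11* was not matched and is not analysed here, and *Cxcl12* has a pair of probes.

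All mice were male, on the C57BL/6 strain, fed chow, and had lost their adrenal glands, and with them most of their own glucocorticoid. The Flox mice carry a floxed glucocorticoid receptor (GR) gene on both alleles. The GR iKO mice carry the same alleles together with Villin-cre, which is active in the intestinal epithelium, so the immune, stromal, and endothelial cells of their colon keep GR. The labels give 8 to 10 weeks as the age, with ADX at 6 to 8 weeks, 2 weeks before the injection, and the study's text gives an older age. DEX, a synthetic GR agonist, was given at 1 mg/kg and the colon was collected after 6 hours. The groups were Flox with PBS (n = 4), Flox with DEX (n = 3), GR iKO with PBS (n = 3), and GR iKO with DEX (n = 4). The labels number these arrays as replicates without saying that each came from a mouse of its own, so the p-values measure the spread between arrays. Each group filled 1 of 4 slides alone, and effects of slide and of group cannot be told apart.

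Chemokines are small secreted proteins that draw leukocytes along a gradient by binding G protein-coupled receptors. *Cxcl1*, *Cxcl2*, and *Cxcl5* act on CXCR2 of neutrophils and are induced through NF-kB, whereas *Cxcl9*, *Cxcl10*, and *Cxcl11* act on CXCR3 of activated T cells and NK cells and are induced by interferons. *Cxcl12*, *Cxcl13*, and *Cxcl14* are largely products of stromal or epithelial cells in resting tissue, and *Xcl1* is released by NK cells and CD8+ T cells and draws dendritic cells that carry XCR1.

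Promoter sequences from RefSeq (mouse assembly GRCm38.p6) were found for 8 of the genes, all but *Cxcl5* and *Cxcl11*. The 250 bases before each annotated start were searched on both strands for the NF-kB consensus, the interferon-stimulated response element, the gamma-activated sequence TTCNNNGAA, and the glucocorticoid half-site AGAACA. The promoters shown are those of *Cxcl10* (chr5:92348890-92349139, minus strand) and *Cxcl9* (chr5:92328080-92328329, minus strand), whose signal fell with DEX in both genotypes, and those of *Cxcl14* (chr13:56296552-56296801, minus strand) and *Xcl1* (chr1:164935523-164935772, minus strand), whose fall was called in Flox colon. They are written 5′ to 3′ along the gene, with every match in capitals.
Cxcl10: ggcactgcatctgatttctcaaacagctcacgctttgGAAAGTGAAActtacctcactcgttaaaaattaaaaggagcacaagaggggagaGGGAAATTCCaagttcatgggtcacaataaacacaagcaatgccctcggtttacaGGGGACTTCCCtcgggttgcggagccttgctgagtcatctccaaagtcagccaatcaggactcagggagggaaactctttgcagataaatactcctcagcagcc
Cxcl9: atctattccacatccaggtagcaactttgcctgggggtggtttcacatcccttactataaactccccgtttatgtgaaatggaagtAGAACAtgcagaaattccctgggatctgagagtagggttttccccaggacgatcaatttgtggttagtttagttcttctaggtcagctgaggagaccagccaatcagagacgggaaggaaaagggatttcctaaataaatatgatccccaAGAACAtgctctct
Cxcl14: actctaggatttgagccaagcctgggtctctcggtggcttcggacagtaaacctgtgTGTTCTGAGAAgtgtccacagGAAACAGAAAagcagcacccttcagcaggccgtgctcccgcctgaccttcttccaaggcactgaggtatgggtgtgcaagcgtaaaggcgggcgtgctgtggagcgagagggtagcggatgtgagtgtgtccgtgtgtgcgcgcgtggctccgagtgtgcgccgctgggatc
Xcl1: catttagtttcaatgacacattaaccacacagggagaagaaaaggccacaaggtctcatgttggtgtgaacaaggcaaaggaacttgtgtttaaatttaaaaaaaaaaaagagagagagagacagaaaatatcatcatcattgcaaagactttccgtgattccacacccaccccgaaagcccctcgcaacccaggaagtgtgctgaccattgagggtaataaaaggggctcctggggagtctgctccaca
In *Cxcl10* the capitals mark 1 interferon-stimulated response element that begins 213 bases before the start, and NF-kB matches that begin 159, 104, and 103 bases before it, the last pair overlapping. The *Cxcl9* capitals are glucocorticoid half-sites 164 and 14 bases before the start. In *Cxcl14* a half-site that begins 193 bases before the start overlaps a gamma-activated sequence at 191 bases, and an interferon-stimulated response element lies at 172 bases. The *Xcl1* promoter holds none of the 4 motifs in this window, and neither do those of *Cxcl12* and *Cxcl13*. *Cxcl1* and *Cxcl2*, which lie close together on chromosome 5, share the stretch GGGAATTTCCC, an NF-kB match on both strands, 71 and 97 bases before their starts. Among 32851 promoters of this length, 7.25% hold the NF-kB consensus, 2.98% the interferon-stimulated response element, 7.02% the gamma-activated sequence, and 16.1% the half-site. A match is a description of letters and not a bound site.

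The values below are log2 signals, that is, the log2 of the background-corrected spot intensity minus the 75th percentile of the same array, so 0 is the level under which 75% of the probes lie and each unit is a doubling. Levels are compared between groups for 1 probe at a time, since probes differ in brightness. A change counted as called where the limma p, adjusted over all probes after Benjamini and Hochberg, was under 0.05 and the change was at least 2-fold. The arrays had a 75th percentile of 593 to 818 intensity units, and 28259 to 30498 probes were well above background on each. *Cxcl9*, *Cxcl12*, *Cxcl13*, and *Cxcl14* were well above background on all 14 arrays, *Cxcl10* on 13, *Xcl1* on 12, *Cxcl1* on 6, *Cxcl5* on 5, and *Cxcl2* on 1. No chemokine spot was saturated. *Nr3c1*, which encodes GR, was at 1.33 ± 0.08 (SD, n = 4) in Flox with PBS and 1.12 ± 0.12 (n = 3) in Flox with DEX, against 0.42 ± 0.26 (n = 3) and -0.11 ± 0.07 (n = 4) in the GR iKO groups. The 8 epithelium markers averaged 6.18 to 6.48 on every array, far above the array's 75th percentile.

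DEX lowered chemokine signal in both genotypes, although under normexp background correction, under which the median log2 change of all probes in Flox colon was 0.57, no member was called and *Cxcl1*, *Cxcl2*, *Cxcl5*, and *Xcl1* had positive values in Flox colon. In Flox colon *Cxcl10*, *Xcl1*, *Cxcl9*, *Cxcl12*, and *Cxcl14* fell, 5 of the 9 genes, whereas 0.806% of all probes were called lower. In GR iKO colon *Cxcl10*, *Cxcl5*, *Cxcl9*, and *Cxcl13* fell, 4 of 9, beside 0.758% of all probes. No chemokine rose in either genotype. On the authors' deposited log2 table, the same 5 genes were called in Flox colon. In GR iKO colon the same 4 were called, and *Cxcl12* (log2 change -1.01, adjusted p = 0.0173). The share of all probes called on that deposited version is not given here. The median log2 change of the 9 genes was -1.54 in Flox colon and -1.23 in GR iKO colon, and that of all probes was 0.06 and 0.11. With a floor on dim values, that is, with values under an array's lowest signal well above background raised to it, the median of the 9 genes was -1.38 and -0.97. The arrays of the PBS and DEX groups did not overlap, with DEX lower, for 7 genes in Flox colon and 6 in GR iKO colon, beside 8.37% and 7.55% of all probes. In a bulk colon sample, fewer cells of a type and less RNA per cell cannot be told apart.

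**Figure D1:**
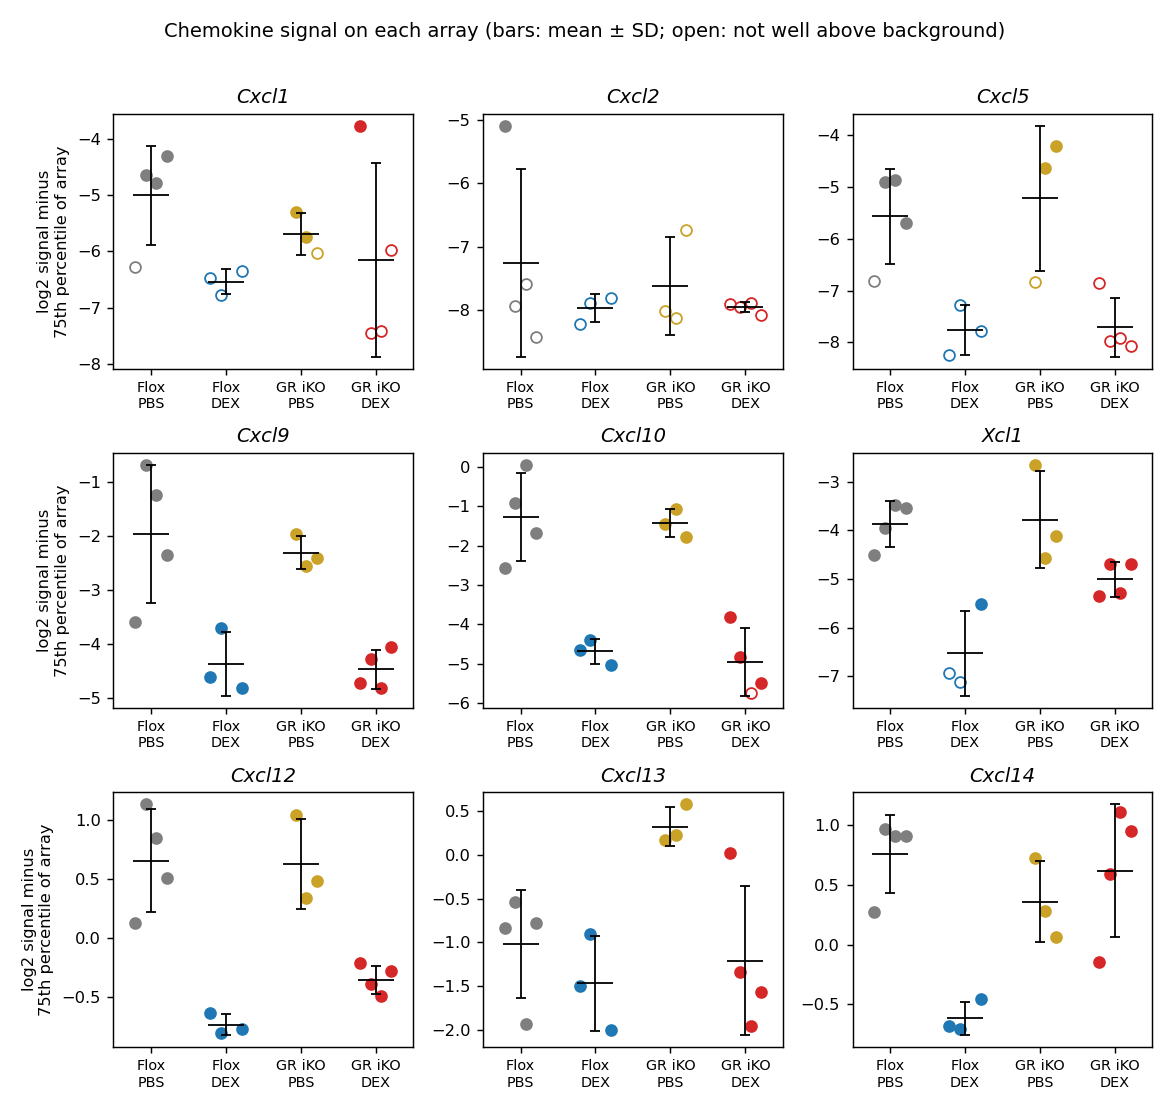
Log2 signal of the 9 chemokines on each of the 14 arrays (75th percentile of an array = 0), by genotype and treatment. Filled circles are spots well above background, open circles are not, and bars are the group mean ± SD; the DEX arrays of *Cxcl10* lie between -5.75 and -3.81 and its PBS arrays between -2.56 and 0.05.

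Among the interferon-induced ligands of CXCR3, *Cxcl10* had the largest change of the family. In Flox colon its log2 signal with PBS was -2.56, -0.92, 0.05, and -1.69, and with DEX it was -4.65, -4.39, and -5.02. The GR iKO values were -1.44, -1.06, and -1.79 with PBS and -3.81, -4.82, -5.75, and -5.48 with DEX. All DEX arrays of either genotype lay below all PBS arrays. The log2 fold change was -3.40 ± 0.56 (SE) in Flox colon, a 10.6-fold fall (limma, adjusted p = 0.0102), and -3.53 ± 0.56 in GR iKO colon, an 11.6-fold fall (adjusted p = 0.00389). Counted from the largest fall, *Cxcl10* was number 11 of 41173 probes in Flox colon and number 6 of 41174 in GR iKO colon. The responses of the genotypes differed by -0.13 (GR iKO minus Flox, 95% confidence interval -1.87 to 1.61). Both falls were called whichever of the 14 arrays was left out. Under normexp background correction neither was called, and the Flox change was -1.19. The GR iKO DEX array at -5.75 was not well above background, so the size of that fall rests in part on a background value.

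*Cxcl9*, the neighbor of *Cxcl10* on chromosome 5, also fell in both genotypes. Its log2 signal in Flox colon was -3.59, -0.69, -1.24, and -2.35 with PBS and -4.61, -3.70, and -4.81 with DEX. The GR iKO arrays read -1.97, -2.55, and -2.41 with PBS and -4.71, -4.27, -4.81, and -4.06 with DEX. The groups did not overlap in either genotype, although the lowest Flox PBS array, replicate 1, came within reach of the highest Flox DEX array. *Cxcl9* fell by 2.41 ± 0.56 on the log2 scale in Flox colon (5.30-fold, adjusted p = 0.0403) and its log2 change was -2.15 ± 0.56 in GR iKO colon (4.45-fold, adjusted p = 0.0287). The difference of the responses was 0.25 (95% confidence interval -1.46 to 1.97). The call in Flox colon held without Flox PBS replicate 1 (log2 change -2.95, adjusted p = 0.00438) or GR iKO PBS replicate 2 (adjusted p = 0.0409) and was lost without any one of the other 12 arrays, with adjusted p up to 0.134. The call in GR iKO colon was lost without any GR iKO PBS array or without GR iKO DEX replicate 1, 2, or 3, with adjusted p up to 0.0725.

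The ligands of CXCR2 were dim in this colon. *Cxcl5* had log2 signals of -6.81, -4.90, -4.86, and -5.70 in Flox with PBS and -8.24, -7.28, and -7.78 in Flox with DEX. Its values in GR iKO colon were -6.83, -4.63, and -4.22 with PBS and -6.86, -7.98, -7.91, and -8.07 with DEX. *Cxcl5* was not well above background on any DEX array, and was so on 3 of 4 and 2 of 3 PBS arrays. The measured change was therefore bounded by the background, as at least 1.26-fold lower with DEX in Flox colon (limma, adjusted p = 0.0823) and at least 1.38-fold lower in GR iKO colon (adjusted p = 0.0261, called). For such a bound each array of the dimmer group counts at its own value or at its lowest signal well above background, whichever is higher. Arrays of the brighter group keep their own values. Here and below, an adjusted p or call beside a bound belongs to the fitted change without a floor. For *Cxcl5* this log2 change was -2.20 in Flox colon and -2.48 in GR iKO colon. The responses of the genotypes were not compared for *Cxcl5*, since both DEX groups lay at background. The GR iKO call was lost without GR iKO PBS replicate 3 or 4 or GR iKO DEX replicate 2 or 3 (adjusted p 0.0599 to 0.0992), and with a floor on dim values (log2 change -0.83, adjusted p = 0.109).

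*Cxcl1*, the mouse counterpart of the human GRO chemokines, did not pass the test in either genotype. In Flox colon its log2 signal was -6.27, -4.63, -4.78, and -4.30 with PBS and -6.48, -6.78, and -6.35 with DEX. These groups did not overlap, no DEX array was well above background, and the DEX mean was at least 1.87-fold lower (adjusted p = 0.304). The GR iKO values were -5.29, -5.75, and -6.03 with PBS and -3.76, -7.45, -7.41, and -5.98 with DEX. The GR iKO DEX array of replicate 1 was the brightest of the 14 for *Cxcl1*, and it alone of its group was well above background. The log2 change in GR iKO colon was -0.46 (adjusted p = 0.728), and with a floor on dim values it was 0.44 (adjusted p = 0.543), so it has no settled direction. *Cxcl2*, which acts on the same receptor, was well above background on Flox PBS replicate 1 alone, at -5.09. On the other 13 arrays it lay between -8.42 and -6.73, where no difference was detectable.

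*Xcl1* fell with DEX in Flox colon. The log2 signal was -4.51, -3.94, -3.48, and -3.54 with PBS and -6.93, -7.13, and -5.52 with DEX, where 1 of the 3 arrays was well above background. In GR iKO colon it was -2.65, -4.57, and -4.11 with PBS and -5.36, -4.70, -5.29, and -4.69 with DEX, all 7 well above background. The DEX arrays were lower than the PBS arrays without overlap in both genotypes, but the 2 highest GR iKO DEX arrays lay close to the lowest PBS array. The fitted log2 change was -2.66 ± 0.48 in Flox colon (adjusted p = 0.0154) and -1.23 ± 0.48 in GR iKO colon (2.35-fold, adjusted p = 0.117). As 2 of the 3 Flox DEX arrays were not well above background, the size of the Flox change depends on background values, and with a floor on dim values it was -1.81 (adjusted p = 0.0238). The difference of the fitted responses was 1.43 (95% confidence interval -0.06 to 2.91, adjusted p = 0.441), and 0.58 (adjusted p = 0.898) with the floor, and so the responses were not shown to differ.

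Several values moved with *Xcl1*. Its probe lies in row 432 of 532 on the array, and among the 3171 probes of rows 355 to 532 with a mean log2 signal between -7 and -4, the median change with DEX was 0.75 in GR iKO colon and 0.12 in Flox colon. In the earlier rows, taken as 2 parts of equal height, the GR iKO median was 0.03 and 0.16. Rows 355 to 532 also held 1503 of the 2103 probes called with DEX in GR iKO colon, 1429 of them higher. The probes of *Cxcl9* (row 386) and *Cxcl13* (row 396) lie in those rows as well. With quantile normalization done within each of the 3 parts of the rows, an alternative chosen after the data were seen, the fall of *Xcl1* was called in GR iKO colon too (log2 change -1.85, adjusted p = 0.0347), as it was in Flox colon (adjusted p = 0.0151). The call in Flox colon was lost without Flox DEX replicate 1 (adjusted p = 0.0724) or 2 (adjusted p = 0.0617). Under normexp background correction the change in Flox colon was 0.20 (adjusted p = 0.73), opposite in sign. Markers of cytotoxic lymphocytes, the known source of *Xcl1*, were measured by 9 genes, whose mean log2 signal ran from -5.29 to -4.15 in Flox with PBS, -5.44 to -5.22 in Flox with DEX, -4.96 to -3.32 in GR iKO with PBS, and -5.24 to -4.57 in GR iKO with DEX. None of the 9 was called in Flox colon, and *Cd8a*, the CD8 coreceptor chain, fell in GR iKO colon (log2 change -1.79, adjusted p = 0.0171). The part of these values in the change of *Xcl1* was not tested.

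**Figure D2:**
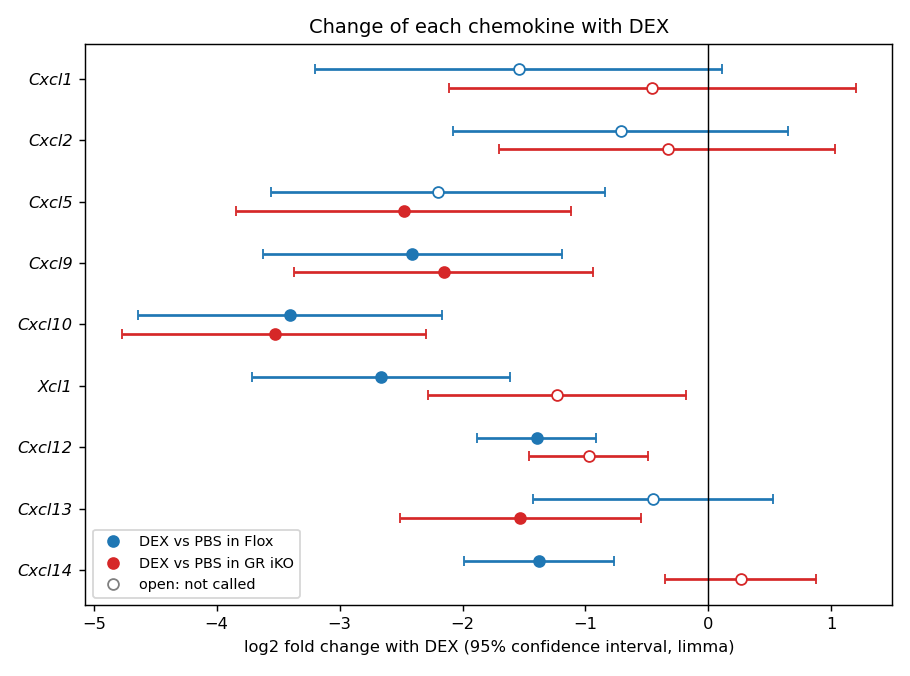
Log2 fold change with DEX of the 9 chemokines in Flox colon (blue) and GR iKO colon (red), with limma 95% confidence intervals on the horizontal axis. Filled circles were called at an adjusted p under 0.05 and 2-fold; *Cxcl10* lies near -3.4 and -3.53 in both genotypes, and *Cxcl14* is at -1.38 in Flox colon and 0.27 in GR iKO colon. The values of *Cxcl1*, *Cxcl2*, and *Cxcl5*, and of *Xcl1* in Flox colon, rest on arrays not well above background.

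*Cxcl12*, the stromal ligand of CXCR4, fell in Flox colon by both of its probes. The brighter probe read 0.13, 1.14, 0.85, and 0.51 in Flox with PBS and -0.63, -0.80, and -0.77 in Flox with DEX. The GR iKO arrays gave 1.05, 0.34, and 0.49 with PBS and -0.21, -0.39, -0.49, and -0.28 with DEX. The arrays separated by treatment in both genotypes. The log2 fold change in Flox colon was -1.39 ± 0.22 (2.62-fold, adjusted p = 0.0088), and -1.45 ± 0.14 by the other probe (adjusted p = 0.00073). In GR iKO colon the changes were -0.97 ± 0.22 (1.96-fold, adjusted p = 0.0176) and -0.98 ± 0.14 (adjusted p = 0.00229), past the adjusted p but under the 2-fold minimum. The authors' normalized table gave -1.01 in GR iKO colon (adjusted p = 0.0173), just past it. The difference of the responses was 0.42 (95% confidence interval -0.26 to 1.10) by the brighter probe and 0.47 (0.04 to 0.89, adjusted p = 0.365) by the other. The call in Flox colon held whichever array was left out.

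*Cxcl14*, a chemokine made by epithelial and stromal cells, had the lowest unadjusted p of the 9 genes for a difference of responses between the genotypes. In Flox colon it read 0.27, 0.97, 0.91, and 0.91 with PBS and -0.68, -0.71, and -0.46 with DEX. With the receptor deleted in the epithelium it read 0.73, 0.28, and 0.06 with PBS and -0.15, 0.59, 1.11, and 0.95 with DEX, so that 2 DEX arrays were above and 1 below every PBS array. *Cxcl14* fell by 1.38 ± 0.28 on the log2 scale in Flox colon (2.61-fold, adjusted p = 0.0242), and the change in GR iKO colon was 0.27 ± 0.28 (adjusted p = 0.568). The responses differed by 1.65 (95% confidence interval 0.78 to 2.52, unadjusted p = 0.00139), which was not called after adjustment over all probes (adjusted p = 0.109). With array weights the difference of responses was 1.84 (adjusted p = 0.0411). The call in Flox colon was lost without Flox PBS replicate 2, 3, or 4 or any of the Flox DEX arrays (adjusted p 0.0505 to 0.0931).

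*Cxcl13* draws B cells and follicular T cells through CXCR5 and marks lymphoid follicles. Its log2 signal was -0.84, -0.54, -1.93, and -0.78 in Flox with PBS and -1.50, -0.91, and -2.00 in Flox with DEX, overlapping groups. In GR iKO colon it was 0.17, 0.22, and 0.58 with PBS and 0.02, -1.34, -1.95, and -1.57 with DEX, where replicate 1 lay just under the PBS arrays. The change was -0.45 ± 0.45 in Flox colon (adjusted p = 0.653) and -1.53 ± 0.45 in GR iKO colon (2.90-fold, adjusted p = 0.0467). The responses differed by -1.09 (95% confidence interval -2.47 to 0.30), which does not separate them. The GR iKO call held without Flox PBS replicate 3, Flox DEX replicate 4, or GR iKO DEX replicate 1 and was lost without any one of the other 11 arrays, with adjusted p up to 0.134. The 6 markers of B cells and follicles averaged -3.89 to -2.91 in Flox with PBS, -4.41 to -3.90 in Flox with DEX, -3.82 to -0.85 in GR iKO with PBS, and -4.04 to -2.35 in GR iKO with DEX, and their part in the *Cxcl13* values was not tested.

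No chemokine was called between the genotypes. Under PBS, 1 of 9 genes separated the groups with GR iKO higher, beside 2.3% of all probes, and this was *Cxcl13* (log2 difference 1.34, adjusted p = 0.387). With DEX, *Xcl1* (1.51, adjusted p = 0.203), *Cxcl14* (1.24, adjusted p = 0.0977), and *Cxcl12* (0.39, adjusted p = 0.487) separated with GR iKO higher, 3 of 9, beside 8.78% of all probes. The *Xcl1* difference was measured against the mostly dim Flox DEX arrays, and with a floor on dim values it was 0.67 (adjusted p = 0.425). In limma, 1 gene under PBS, 2 with DEX, and 1 for the difference of responses had an unadjusted p under 0.05, beside 7.79%, 13.4%, and 12% of all probes. Calls between genotypes made up 0.126% of probes under PBS and 0.165% with DEX, and 0.257% were called for the difference of responses. Of the 106 probes behind that last share, 76 lay in rows 355 to 532 of the array. *Sgk1*, a glucocorticoid-induced kinase gene, rose by 3.21 in Flox colon (adjusted p = 0.000909), with 0.68 in GR iKO colon (adjusted p = 0.194), and the difference of -2.54 was called (adjusted p = 0.0478). *Fkbp5*, the other check of the treatment, rose by 3.64 in Flox colon (adjusted p = 0.00073), with 0.96 in GR iKO colon (adjusted p = 0.0865). Its difference of -2.69 was called too (adjusted p = 0.0476). The same model called a difference of responses for *Sgk1* and *Fkbp5* and for none of the 9 chemokines. For *Cxcl1*, *Cxcl2*, and *Cxcl5* it could not compare the responses. No Flox DEX array of these was well above background, and *Cxcl2* was so on only 1 of 14 arrays. An uncalled difference does not show that the responses of the genotypes were equal.

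The PBS arrays of Flox colon also varied among themselves. Replicate 1 was the lowest of the 4 for 7 of the 9 genes, all but *Cxcl2* and *Cxcl13*, and the highest for *Cxcl2*. The mean log2 signal of the interferon-gamma list was likewise lowest on that array, at 0.69, against 1.96, 1.34, and 1.14 on the others. Replicate 2 had the highest *Cxcl9*, *Cxcl12*, *Cxcl13*, and *Cxcl14*, and replicate 3 the highest *Cxcl10*, *Cxcl5*, and *Xcl1*. The genes were measured on the same RNA, so these shared positions are not independent of each other.

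The interferon-gamma list held 13 genes of the response that also induces *Cxcl9* and *Cxcl10*. In Flox colon 7 of the 13 were called lower and in GR iKO colon 2, beside 0.806% and 0.758% of all probes, and none was called higher. Negative changes were found for 13 genes in Flox colon and 11 in GR iKO colon. The list's median log2 change was -1.34 and -0.73, beside 0.06 and 0.11 for all probes. *Iigp1*, an immunity-related GTPase, fell by 3.19 ± 0.49 in Flox colon (adjusted p = 0.00747), with -1.42 in GR iKO colon (adjusted p = 0.0826). *Gbp2*, a guanylate-binding protein, fell in both (-1.91 and -1.31, adjusted p = 0.00291 and 0.00653). *Cd274*, which encodes PD-L1, fell by 1.82 in Flox colon (adjusted p = 0.00295), with -0.20 in GR iKO colon (adjusted p = 0.597). The difference for *Cd274* was 1.62 (adjusted p = 0.0668), and no gene of the list was called for a difference of responses. *Irf1*, a transcription factor of the response, had a log2 change of -0.51 in Flox colon (adjusted p = 0.0508) and 0.11 in GR iKO colon (adjusted p = 0.609). Its difference of responses was 0.62 (adjusted p = 0.174). The list's mean log2 signal lay between 0.69 and 1.96 in Flox with PBS and between -0.32 and 0.18 with DEX, and between 0.84 and 0.98 and between 0.12 and 0.33 in GR iKO colon, so neither genotype overlapped by treatment.

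**Figure D3:**
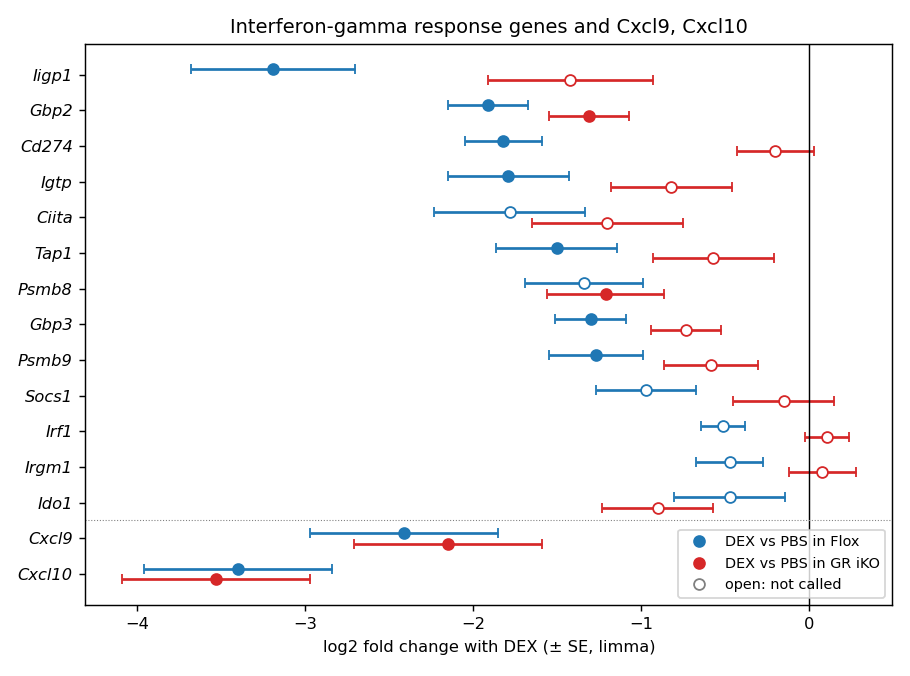
Log2 fold change with DEX (± SE) of the 13 interferon-gamma response genes and, below the dotted line, of *Cxcl9* and *Cxcl10*, in Flox colon (blue) and GR iKO colon (red). Filled circles were called. In Flox colon 7 list genes were called lower and 13 had negative changes, and in GR iKO colon 2 and 11. The red points of *Cxcl9* and *Cxcl10* lie at -2.15 and -3.53.

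Of 8 cytokines that induce these chemokines, *Tnf*, *Lta*, and *Ltb* were well above background on all 14 arrays and *Il1b* on 12. *Il1b* fell in both genotypes (log2 change -2.22, adjusted p = 0.0134, and -2.02, adjusted p = 0.0089), and *Lta*, which sustains lymphoid follicles, fell in GR iKO colon (-1.45, adjusted p = 0.0345), with -0.54 in Flox colon (adjusted p = 0.515). *Ltb*, whose product pairs with that of *Lta*, had -0.62 (adjusted p = 0.55) and -1.49 (adjusted p = 0.0684), and *Tnf*, an inducer of NF-kB, had -1.09 (adjusted p = 0.183) and -0.79 (adjusted p = 0.248) in Flox and GR iKO colon. *Ifng* was well above background on 6 of 14 arrays, none of them Flox with DEX, and the Flox DEX mean was lower by at least 1.95-fold (adjusted p = 0.109). *Il1a*, *Il6*, and *Il17a* stood out from background on none of the 14 arrays. Of the 6 other CXC ligands, *Pf4*, the platelet chemokine that macrophages also express, fell in both genotypes (-1.57, adjusted p = 0.00982, and -1.37, adjusted p = 0.00811). *Cxcl16*, the ligand of CXCR6, changed by -0.92 in Flox colon (adjusted p = 0.0228), under 2-fold, and by -0.43 in GR iKO colon (adjusted p = 0.158). *Cxcl3*, *Cxcl15*, and *Cxcl17* likewise stood out on none.

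Of the 9 receptor genes, 1 was called in Flox colon and none in GR iKO colon. *Cxcr6*, carried by tissue T cells, fell in Flox colon (log2 change -1.23, adjusted p = 0.0305), and its change of -0.93 in GR iKO colon (adjusted p = 0.0428) passed the adjusted p but not the 2-fold minimum. *Cxcr3*, the receptor of *Cxcl9* and *Cxcl10*, had -0.75 in Flox colon (adjusted p = 0.168), and its lower level with DEX in GR iKO colon passed the adjusted p (0.0379) and came just short of 2-fold. Of 10 measured genes of NF-kB feedback and its restraint by glucocorticoids, *Tsc22d3*, which encodes the inhibitor GILZ, rose in both genotypes (1.90, adjusted p = 0.00073, and 1.63, adjusted p = 0.000807). *Icam1*, an NF-kB target, fell in GR iKO colon (-1.04, adjusted p = 0.0253), with -0.99 in Flox colon (adjusted p = 0.0627). The difference of the *Tsc22d3* responses was -0.27 (adjusted p = 0.745).

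Of the markers of cells that make or answer these chemokines, some were called with DEX. Beside them, 0.806% of all probes were called lower in Flox colon and 0.758% in GR iKO colon, and 0.76% and 4.35% higher. None of the 8 epithelium, 5 colonocyte, 6 macrophage, 6 B cell, or 6 smooth muscle markers was called with DEX in either genotype. All 6 smooth muscle markers had positive changes in both genotypes, with a median of 0.61 in Flox colon and 0.23 in GR iKO colon. Their mean log2 signal was 5.17 to 5.52 in Flox with PBS and 5.84 to 6.28 with DEX, without overlap, and 5.50 to 5.87 and 5.41 to 6.15 in GR iKO colon. The macrophage list averaged -0.84 to 0.03 in Flox with PBS and -1.27 to -0.88 with DEX, and -0.79 to -0.12 and -1.16 to -0.75 in GR iKO colon. All 6 macrophage, all 6 fibroblast, and all 6 B cell markers had negative changes in both genotypes. Of the 6 endothelium markers, 5 were negative in Flox colon and 3 in GR iKO colon. Endothelium markers averaged -0.96 to -0.67 in Flox with PBS and -1.35 to -1.24 with DEX. In GR iKO colon they averaged -0.96 to -0.72 and -1.45 to -1.12, without overlap in either genotype. Single markers were called, mostly with changes of the same sign in the other genotype. *Batf3* of dendritic cells fell in Flox colon (-1.16, with -0.88 and adjusted p = 0.0265 in GR iKO colon), as did *Pdpn* of fibroblasts (-1.14, with -0.54). Of the 5 dendritic cell markers, 4 were negative in Flox colon and 3 in GR iKO colon. *Xcr1*, the receptor of *Xcl1*, was positive in both (0.19, adjusted p = 0.665, and 0.6, adjusted p = 0.0634). *Cd3g* of T cells fell in GR iKO colon (-1.15, with -0.87 in Flox colon), as did *Tek* of endothelium (-1.21, with -0.99). Of the 6 T cell markers, 4 were negative in Flox colon and 5 in GR iKO colon. *Cd3e* was positive in both (0.92, adjusted p = 0.0918, and 0.88, adjusted p = 0.0546). *Kdr* of endothelium fell in both (-1.01 and -1.03). *Csf3r* of neutrophils, dim on all DEX arrays, was at least 1.12-fold lower in Flox colon (adjusted p = 0.101) and at least 1.08-fold lower in GR iKO colon (adjusted p = 0.0301, called). Its p-values and call are those of the fit without a floor. Of the 6 neutrophil markers, 4 were negative in Flox colon and 3 in GR iKO colon. *Clec9a* of dendritic cells was called in GR iKO colon (adjusted p = 0.0489), but was well above background on only 3 of 14 arrays and has no measurable fold. Fibroblast markers averaged 1.29 to 2.00 and 0.92 to 1.39 in Flox with PBS and DEX, and 1.68 to 1.85 and 1.35 to 1.51 in GR iKO colon. Genes of the exocrine pancreas, a tissue next to the colon, averaged -3.94 to 5.37 in Flox with PBS, -2.78 to 7.17 in Flox with DEX, -4.08 to -3.93 in GR iKO with PBS, and -2.56 to 4.01 in GR iKO with DEX. All 9 had positive changes in both genotypes, and *Pnliprp2*, a pancreatic lipase-related gene, rose in GR iKO colon (5.44, adjusted p = 0.0119). With their mean as a covariate, an alternative chosen after the data were seen, 5 chemokines were called in Flox colon and 4 in GR iKO colon, with *Cxcl10* at -3.65 and -3.79. The share of all probes called in that fit is not given here. Of the distal colon list, 4 genes were measured, and *Hoxd12* rose in GR iKO colon (2.53, adjusted p = 0.0269), where 1 of 3 PBS arrays was well above background. The list averaged -1.70 to -0.78 and -2.67 to -1.27 in Flox with PBS and DEX, and -3.56 to -1.02 in GR iKO with DEX. In GR iKO with PBS, replicate 2 stood apart at -5.55, against -1.05 and -1.22. Without that array *Cxcl10* (-3.54, adjusted p = 0.00942) and *Cxcl5* (adjusted p = 0.00518) were called with DEX in GR iKO colon, and *Cxcl9* (-1.98, adjusted p = 0.0725) and *Cxcl13* (-1.61, adjusted p = 0.0733) were not. The part of the other cell type markers in the chemokine changes was not tested.

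Across all 14 arrays, the genes whose log2 signal ran most like each chemokine were found among 20708 named probes well above background on every array, for the 6 chemokines well above background on at least 10. For *Cxcl9* these were *Tgtp1*, an interferon-induced GTPase (Pearson r = 0.96), *Rhox5* (0.95), and the monocyte chemokine *Ccl2* (0.95). With group means removed, the r of *Tgtp1*, *Rhox5*, and *Ccl2* with *Cxcl9* was 0.91, 0.82, and 0.86. For *Cxcl10* they were *Anpep* (0.96), *Alox12* (0.96), and *Podxl* (0.95), with 0.79, 0.75, and 0.65 after group means were removed. For *Cxcl12* they were *Fcgr1*, an Fc receptor of macrophages (0.98), *Hic1* (0.97), and *Tmem273* (0.97), with 0.89, 0.84, and 0.83 after group means were removed. *Cxcl13* ran most like the follicle cytokine gene *Ltb* (0.86), *Marchf1* (0.86), and *Ptpn6* (0.85), with 0.67, 0.68, and 0.59 after group means were removed. *Cxcl14* ran most like *Ripk3* (0.93), *Ctsb* (0.93), and *Nelfe* (0.89), with 0.85, 0.87, and 0.65 after that step. *Xcl1* ran most like *Rbms1* (0.94), *Ccdc116* (0.93), and *Paqr8* (0.93), with 0.72, 0.82, and 0.88 after it. The arrays share treatment, slide, and RNA composition, and these values describe likeness over 14 arrays without a test.

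**Figure D4:**
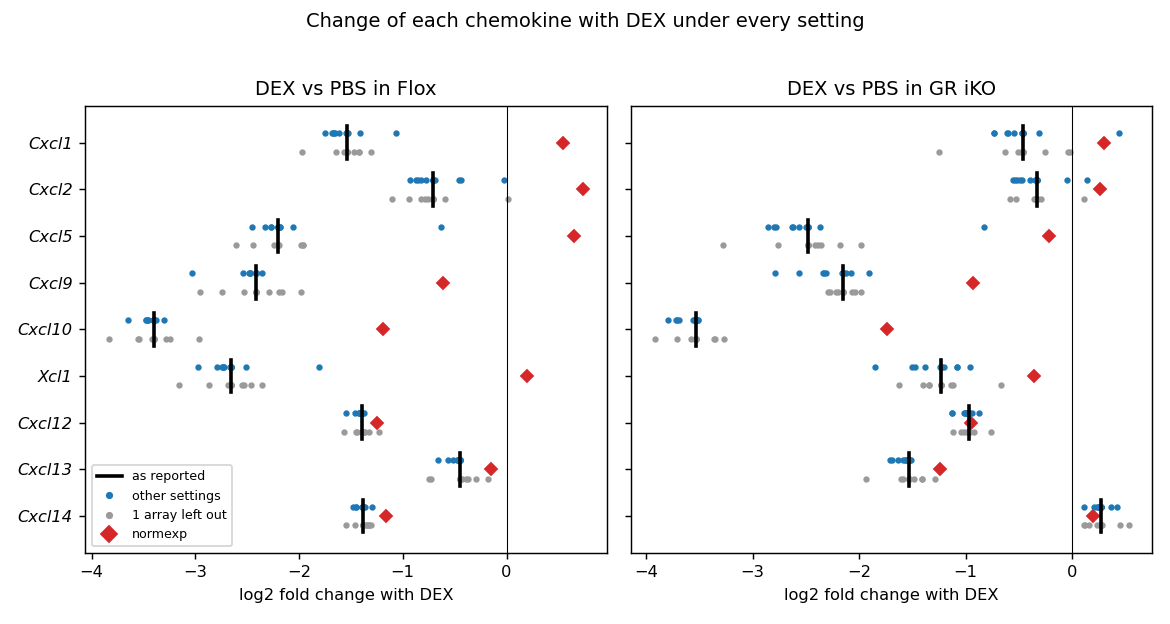
Log2 fold change with DEX of each chemokine in Flox colon (left) and GR iKO colon (right) under every setting tried, with the reported value as a black bar, other settings in blue, fits with 1 array left out in gray, and normexp background correction as red diamonds. *Cxcl12* under normexp lies at -1.25 in Flox colon, near its reported value, whereas *Cxcl10* lies at -1.19, far from its reported value.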

How the data were processed

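Colon RNA was hybridized to 1-color Agilent mouse arrays, and 14 arrays were put into groups from their titles. The labels' treatment text speaks of DEX for all samples, those titled PBS as well, and was not used. The authors deposited spot intensity as Agilent Feature Extraction wrote it (version 12.0.0.7 per the file headers), background-subtracted and not normalized between arrays. The authors also deposited a log2 table of the same arrays. Its 14 columns each followed their own array best (lowest r = 0.9994) and had the same median, 6.29, so it was taken as quantile normalized, which no source read here states. The submitters' processing notes name Feature Extraction and Partek 6.6.

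Here, control spots and outlier-flagged spots were left out, spots of a probe were averaged, and each array's 75th percentile was subtracted on the log2 scale. Genes were named through RefSeq accessions, which named 28223 of 41174 probes and left 12951 without a name. For a gene with several probes, the brightest was used. One model of the 4 groups was fitted in R 4.3.3 with limma 3.58.1 (lmFit, eBayes), and the scripts were tested on simulated data. A fit that lacked a group's values for 1 probe left it out, so 41173 probes were tested in the contrasts with Flox arrays on PBS. The number of arrays limits the precision.

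The named genes are all listed chemokines, list genes called in a comparison, the 3 genes most like each bright chemokine, and *Nr3c1*, *Sgk1*, and *Fkbp5* as checks. Uncalled list genes given with values (*Ifng*, *Tnf*, *Ltb*, *Irf1*, *Cxcl16*, *Cxcr3*, *Xcr1*, *Cd3e*) were named after their values were seen. The members, lists, and tests were chosen with earlier results of these data known. 1 gene of the interferon-gamma list is not reported here and was left out of it. Lists are described by counts and medians and were not tested.

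The alternatives were normexp background correction (offset 50, on median intensity), quantile normalization, median scaling, the deposited log2 table, a percentile set separately in 3 parts of the array, a dim-probe filter, a floor for dim values, keeping outlier spots, only the groups compared, array weights, a replicate block, the methods' t-test (unadjusted and adjusted), no fold minimum, averaging a gene's probes, and each array left out in turn. After the data were seen, quantile normalization within each of the 3 parts of the rows and a covariate for exocrine pancreas genes were added. No slide block could be fitted, since each of the 4 slides held 1 group.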

Additional observations from a re-analysis of the deposited data

Results flagged for a closer look

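Among the 18 groups of 4 arrays examined, 2 held an array far from the others, and chance alone flags about 0.9. *Cxcl5* on GR iKO DEX replicate 1 had a log2 signal of -6.86, with the other 3 arrays between -8.07 and -7.91, all 4 not well above background. Without it, the fall with DEX in GR iKO colon was still called (limma, adjusted p = 0.0312). *Cxcl14* on Flox PBS replicate 1 was at 0.27, with the other 3 arrays between 0.91 and 0.97. The change with DEX in Flox colon was called without that array as well.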

How the results depend on the processing

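With DEX in Flox colon 5 chemokines were called. None was called under normexp background correction (59 of all probes were called, against 645) or by a 2-group t-test after Benjamini-Hochberg adjustment (0 probes). At an unadjusted p under 0.05 and 2-fold, that t-test called 7 chemokines (1457 probes). With 1 array left out the count ranged from 2 to 6, with 2 without Flox DEX replicate 1 or 2 and 3 without Flox PBS replicate 2, 3, or 4 or Flox DEX replicate 4. With DEX in GR iKO colon 4 were called, against 0 under normexp (46 probes, against 2103), 2 in a fit of only the groups compared, and 2 by the adjusted t-test (700 probes). The leave-one-out range was 1 to 4, with 1 without GR iKO DEX replicate 2 or 3 and 2 without any one GR iKO PBS array. Between genotypes with DEX, 0 were called, against 2 with array weights (343 probes, against 68) and 2 by the unadjusted t-test, and 0 to 1 with 1 array left out, the 1 being *Cxcl14* without GR iKO DEX replicate 1. Under PBS the unadjusted t-test called 1 (702 probes, against 52), and array weights called 1 difference of responses (305 probes, against 106). *Xcl1* in Flox colon reversed to 0.20 under normexp. The cause of these changes was not tested. The other alternatives gave at least 4 and, apart from the unadjusted t-test, fewer than 7 calls in Flox colon, and 3 to 6 in GR iKO colon. Over the called changes, 214 alternative values kept their direction and call, 63 kept the direction and lost the call, and 1 reversed. No probe of *Cxcl1*, *Cxcl2*, or *Cxcl5* passed the filter on dim probes (29091 kept), so they have no value there.

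Whether the replicate numbers pair the arrays is not settled by these values, and the main model did not pair them. Arrays of the same number in different groups had correlated deviations of -0.25 to 0.31 (median 0.041, 18 pairs). Those of different numbers had -0.46 to 0.36 (median -0.016, 55 pairs), and 5 of 14 arrays correlated best with their own number. With the replicate block, 5 chemokines were called in Flox colon and 3 in GR iKO colon, where *Cxcl5* had an adjusted p of 0.0686, and 0 in the other comparisons. Of all probes it called 397 in Flox colon, 1754 in GR iKO colon, 24 and 26 between genotypes under PBS and DEX, and 39 for the difference of responses.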
